A study of Mus musculus with 10 samples.

Results

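The mitochondrial chaperones and proteases described here are 10 genes, Hspd1, Hspe1, Hspa9, Grpel1, Dnaja3, Trap1, Clpp, Lonp1, Phb and Phb2, out of 19752 genes that could be named on the array. They were found by name, through the RefSeq accessions that gene probes of the scanner files carry. All 10 were well above background on all 10 arrays, so no gene was lost to a filter on dim signal and none entered through a single group.

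RNA was measured on single-colour Agilent mouse arrays in 5 groups of 2 arrays. Muscle came from male C57BL/6J mice: hSA::Fv2E-PERK transgenic (TG) mice injected intraperitoneally with AP20187 at 1 ng/g, TG mice injected with its vehicle, and wild type mice that received no treatment. Muscle was taken 12 h after injection. C2C12 myoblasts carrying Fv2E-PERK, differentiated for 3 days in horse serum, received AP20187 at 100 nM or the ethanol vehicle and were harvested after 12 h. Fv2E-PERK joins the kinase PERK to a domain that pairs when AP20187 binds it, and paired PERK phosphorylates eIF2alpha and starts the integrated stress response. Expression of the fusion in the mice comes from a promoter of skeletal actin, active in muscle fibres, and both TG groups carry it. The labels do not say whether the 2 arrays of a group came from separate animals or cultures, so the p-values measure the spread between these arrays, which may be technical.

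Mitochondria fold and degrade their own proteins with a small set of machines that are encoded in the nucleus. Hspd1 and Hspe1 form the barrel and the lid of the HSP60 folding chamber. Hspa9 is the mitochondrial HSP70, which pulls proteins in through the inner membrane and folds them, with Dnaja3 as a J-domain partner and Grpel1 as its nucleotide exchange factor. Trap1 is the mitochondrial HSP90. Clpp and Lonp1 are matrix proteases, and Phb and Phb2 are the prohibitins, which build a ring scaffold in the inner membrane and hold one of its proteases. In mammals, misfolded protein in the matrix raises several of these genes through a response in which Ddit3, Atf4 and Atf5 take part, and all 3 of these factors also belong to the integrated stress response.

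The HSP60 and prohibitin pairs are shown by sequence because the members of each pair work in 1 protein complex and are compared below. Sequences are RefSeq promoter windows of GRCm38.p6, from 250 bases before to 50 bases after a start site, and 9 of the 10 genes were matched to a window. Hspd1 and Hspe1 lie head to head on chromosome 1, with Hspe1 on the plus strand and a start site of Hspd1 on the minus strand 216 bases away. Another start site of Hspd1 lies past that of Hspe1, so that from there the genes overlap, and the windows of both Hspd1 starts were searched. The Hspe1 window at chr1:55087898-55088197 (plus strand) is printed with a heat shock element in capitals, and the Phb window at chr11:95666707-95667006 (plus strand) with an E-box and an NRF1-like site in capitals. In the Phb2 window at chr6:124712039-124712338 (plus strand) the capitals mark matches to an ETS site.
Hspe1: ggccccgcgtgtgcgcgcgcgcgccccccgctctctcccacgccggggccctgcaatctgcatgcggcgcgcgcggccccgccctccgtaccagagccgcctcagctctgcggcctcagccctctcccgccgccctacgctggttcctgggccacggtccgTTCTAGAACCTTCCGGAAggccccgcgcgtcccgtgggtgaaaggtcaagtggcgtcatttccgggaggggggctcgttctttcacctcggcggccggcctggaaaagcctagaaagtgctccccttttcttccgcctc
Phb: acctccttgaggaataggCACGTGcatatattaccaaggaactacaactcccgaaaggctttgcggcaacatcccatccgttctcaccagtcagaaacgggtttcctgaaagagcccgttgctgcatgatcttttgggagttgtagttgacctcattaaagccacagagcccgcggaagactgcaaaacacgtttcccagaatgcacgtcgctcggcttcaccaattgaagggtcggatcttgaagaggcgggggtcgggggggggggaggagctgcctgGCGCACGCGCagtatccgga
Phb2: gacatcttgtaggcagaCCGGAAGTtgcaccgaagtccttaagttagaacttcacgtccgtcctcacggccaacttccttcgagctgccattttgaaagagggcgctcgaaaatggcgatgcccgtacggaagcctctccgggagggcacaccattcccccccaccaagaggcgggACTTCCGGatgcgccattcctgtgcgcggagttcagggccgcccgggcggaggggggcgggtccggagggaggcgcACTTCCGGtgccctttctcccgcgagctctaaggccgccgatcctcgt

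The capitals in the Hspe1 window hold the heat shock element, in which the units TTC and GAA alternate with any 2 bases between them, in overlapping matches on both strands, the first beginning 89 bases before the Hspe1 start site. Among all 32851 windows of the same length, 0.603% hold this pattern on either strand, and the window of the facing Hspd1 start holds it too, as the 2 windows share this stretch. The E-box CACGTG, found in 7.15% of windows, was matched in Hspd1, Lonp1 and Phb, and the NRF1-like site, found in 4.6% of windows, in Dnaja3, Hspd1 and Phb; both Hspd1 matches lie in the window of the start past that of Hspe1. The cAMP response element TGACGTCA (1.79% of windows) was matched in Trap1, and the ETS site CCGGAAGT (3.89%) in Phb2. TGATGNAAN, the form of the C/EBP-ATF response element searched here on both strands, was matched in 0 of the 10 windows of these genes, against 3.95% of all windows. At that share 0 matches in 10 windows is a common outcome, so no lack of the element can be read from it. Hspa9 had no window in the search. A match describes letters in the window and says nothing of binding.

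Gene spots well above background made up 41.0% to 53.1% of an array. Outlier flags took 2.37% and 2.00% of gene spots on the C2C12 AP20187 arrays and at most 0.376% elsewhere, and on those C2C12 AP20187 arrays they fell on 20.1% and 17.1% of the brightest 10% of probes. All 10 skeletal muscle markers were above background in every group. Their summed log2 levels ran from 13.3 to 13.8 on the muscle arrays and from 8.72 to 10.1 on the C2C12 arrays. Flagged spots were left out of these sums. They took Tnnt3 from every C2C12 array but the second vehicle one, and Tnni2 from the second C2C12 AP20187 array. The C2C12 sums thus cover different genes on different arrays. The file headers put TG AP20187 and TG vehicle arrays in 1 scan session, wild type in another and C2C12 in the third, so that genotype, injection and scan session cannot be told apart when TG is set against wild type. They also give 1 slide position to both the first TG vehicle and the first C2C12 vehicle array, and 1 to both the second TG vehicle and the first C2C12 AP20187 array, so the recorded slide does not identify a slide. On the recorded layout TG vehicle arrays lay in column 1 and TG AP20187 arrays in columns 3 and 4, so that column and treatment cannot be told apart. The probe for Eif2ak3, the gene for PERK, gave a log2 change of 0.20 (SE 0.16) in TG vehicle against wild type, which did not pass (limma adjusted p = 0.362), and the sources used here do not say where it lies relative to the part of PERK held in the fusion.

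Levels are processed intensities on a log2 scale, set relative to the 75th percentile of their own array, so that 0 stands for that percentile. Calls needed an adjusted p under 0.05 in limma, with the Benjamini-Hochberg method applied over all genes tested in the fit. A gene is given by its brightest probe among those with a value on every array, where it has one; for Hspe1 this is the dimmest of 3, because both brighter ones were flagged on the C2C12 AP20187 arrays. Each probe has its own brightness, so levels are compared between groups and never between genes.

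The first comparison sets transgenic muscle after vehicle against untreated wild type muscle. All 10 genes were higher in TG vehicle muscle, by log2 changes from 0.39 for Lonp1 to 1.35 for Hspa9. Over the whole array 25.7% of 13543 genes tested were called higher in this comparison (12.6% lower and 38.3% in either direction), and the median change of the 10 genes was 0.75, against 0.09 over all genes tested. In each of the 10, both TG vehicle arrays lay above both wild type arrays, as they did in 42.8% of all genes (28.5% were wholly lower). The changes of the 10 genes ranked between percentile 72.2 and percentile 97.6 of all changes. In whole tissue, fewer cells of a type and less RNA per cell cannot be told apart. Of the skeletal muscle markers 1 was higher and 2 lower of 10, and of the myotube markers 4 were higher and 2 lower of 9, with changes up to 1.88. Of the adipocyte markers 2 were higher and 0 lower of 8 (median 0.48), of the endothelium markers 1 higher and 0 lower of 7, of the fibroblast markers 0 higher and 2 lower of 8, and of the macrophage markers 0 higher and 1 lower of 9. The part of these cell types in the changes of the 10 genes was not tested.

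The HSP60 chamber was higher in both of its parts. Hspe1, the lid, read 3.24 and 3.59 in TG vehicle muscle, against 2.07 and 2.10 in wild type muscle, a 2.52-fold difference (log2 change 1.33, SE 0.15, limma adjusted p = 0.000611). Hspd1, the barrel, read 6.14 and 6.10 in TG vehicle muscle, against 5.46 and 5.60 in wild type muscle (log2 change 0.59, SE 0.11, limma adjusted p = 0.00429). The TG vehicle arrays of both genes stood clear of the wild type arrays, and the lid showed the larger change on its probe.

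In the HSP70 machine, Hspa9 read 6.69 and 6.70 in TG vehicle muscle, against 5.30 and 5.38 in wild type muscle, a 2.55-fold difference (log2 change 1.35, SE 0.09, limma adjusted p = 6.81e-05). Its exchange factor Grpel1 read 6.32 and 6.52 in TG vehicle muscle, against 5.54 on both wild type arrays (log2 change 0.88, SE 0.10). The J-domain partner Dnaja3 read 5.91 and 5.88 in TG vehicle muscle, against 5.08 and 5.17 in wild type muscle (log2 change 0.77, SE 0.09). All 3 parts of the machine were thus called higher, the limma adjusted p being 0.000628 for Grpel1 and 0.000746 for Dnaja3. Trap1, the HSP90, read 4.47 on both TG vehicle arrays, against 3.98 and 4.05 in wild type muscle, and its log2 change of 0.46 (SE 0.08) was among the smaller ones.

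The proteases were higher as well. Clpp, the barrel of the ClpXP protease, read 3.34 and 3.49 in TG vehicle muscle, against 2.72 and 2.66 in wild type muscle (log2 change 0.73, SE 0.10, limma adjusted p = 0.00131). Lonp1 read 5.68 and 5.67 in TG vehicle muscle, against 5.26 and 5.30 in wild type muscle, the smallest change of the 10 (log2 change 0.39, SE 0.09, limma adjusted p = 0.0101). Of the prohibitins, Phb read 5.79 and 5.96 in TG vehicle muscle, against 4.82 and 4.90 in wild type muscle, a 2.02-fold difference, and Phb2 read 5.62 and 5.66 in TG vehicle muscle, against 5.04 and 4.98 in wild type muscle. The limma adjusted p was 0.00045 for Phb and 0.00132 for Phb2.

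**Figure D1:**
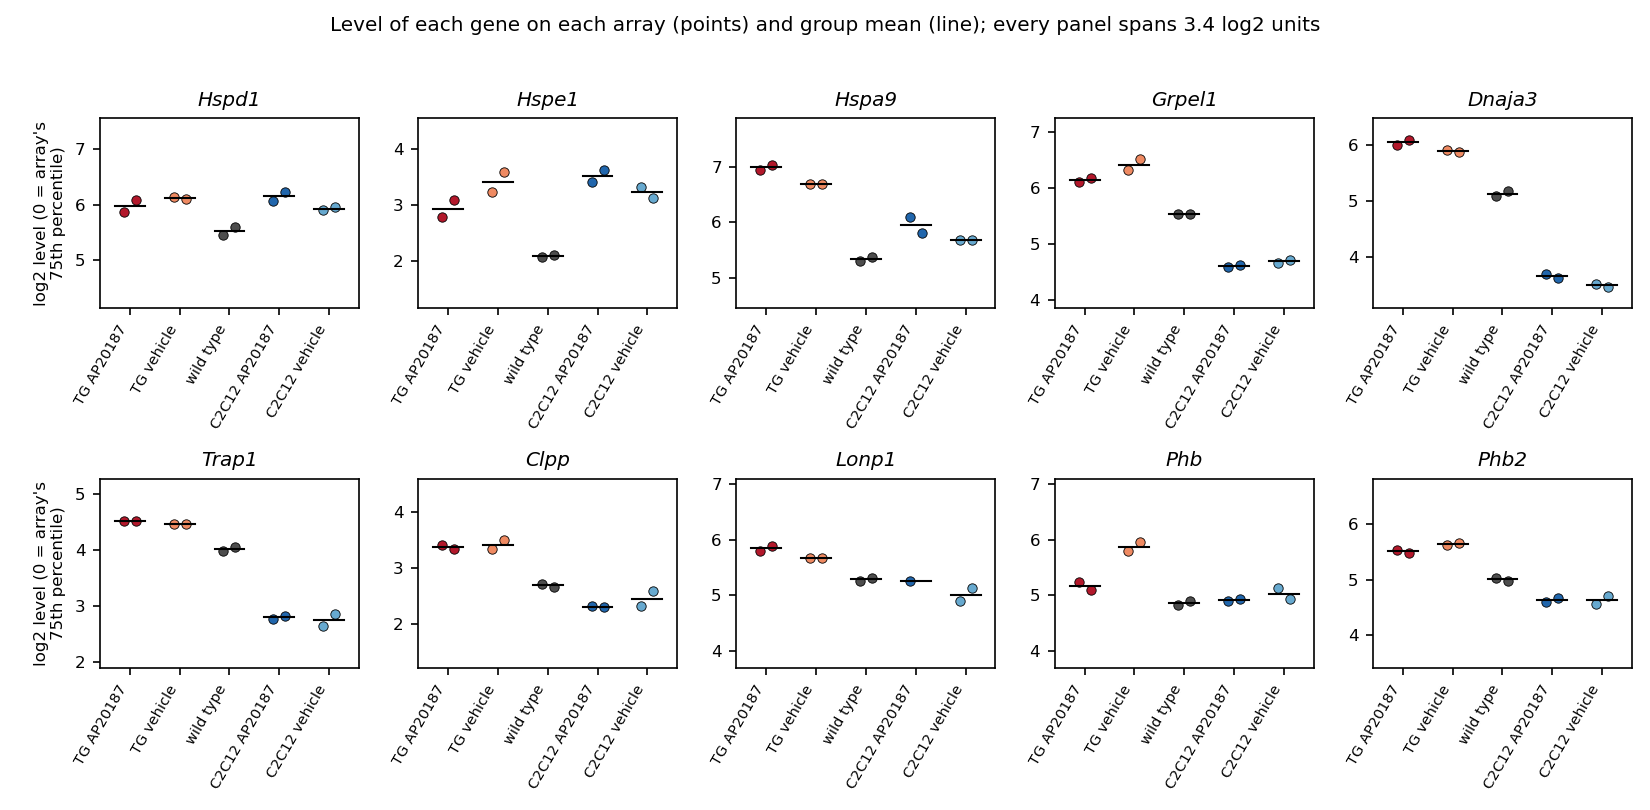
Log2 level of each gene on each array, with 0 at the array's 75th percentile; points are arrays, lines are group means, and groups run from TG AP20187, TG vehicle and wild type muscle to C2C12 AP20187 and C2C12 vehicle. In all 10 panels the TG vehicle points lie above the wild type points, from 5.68 and 5.67 against 5.26 and 5.30 for Lonp1 to 6.69 and 6.70 against 5.30 and 5.38 for Hspa9; Lonp1 has a single C2C12 AP20187 point because the other spot was flagged.

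The call was lost for Lonp1 without either wild type array (limma adjusted p = 0.074 without the first and 0.0515 without the second). Scaling mattered for the smaller changes: after quantile normalization Hspd1 (0.22) and Lonp1 (0.11) did not pass, and with the percentile taken over detected probes Lonp1 (0.18) and Trap1 (0.24) did not pass, while the other 7 genes were called higher under all 17 alternatives run for this comparison. Quantile normalization also brought the changes of Grpel1 to 0.50, Dnaja3 to 0.46, Trap1 to 0.26 and Phb2 to 0.35, the detected probes brought Hspd1 to 0.38 and Phb2 to 0.42, and a mean over probes brought Phb to 0.64.

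A second probe of Phb gave a smaller change in the same direction. It read 5.13 and 5.39 in TG vehicle muscle, against 5.01 and 4.96 in wild type muscle, a log2 change of 0.27 (SE 0.11) that did not pass (limma adjusted p = 0.0933 over all probes). The other probe of Phb2 (log2 change 0.82) and both other probes of Hspe1 (1.14 and 1.17) were called higher like the probes used. The other probe of Grpel1, a dim one with a signal above background on 6 of the 10 arrays, gave 0.40 and did not pass (limma adjusted p = 0.069).

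Genes that work beside the 10 were counted from 7 lists. Of 24 genes of mitochondrial protein import 18 were higher and 0 lower in TG vehicle muscle (median log2 change 0.54), among them Tomm40, the pore of the outer membrane (0.95), and Timm10 and Timm8a1, small chaperones of the space between the membranes (1.103 and 1.14). Other mitochondrial chaperones and cofactors had 8 higher and 0 lower of 12 (median 0.56), led by the iron-sulfur carrier Nfu1 (1.37), Grpel2 (0.81), the sister of Grpel1, and Dnlz (0.77), a partner of Hspa9. Other mitochondrial proteases had 9 higher and 1 lower of 17 (median 0.32), with Immp2l (1.41), a subunit of the inner membrane peptidase, Afg3l2 (0.54), a subunit of the inner membrane protease that prohibitins hold, and Htra2 (0.51). These lists rose in most of their members, by a smaller median than the 10 genes.

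Of 12 genes for matrix enzymes and membrane carriers 4 were higher and 0 lower (median 0.14), with Vdac3, an outer membrane channel (0.96), the ADP/ATP carrier Slc25a5 (0.78) and the citric acid cycle enzyme Fh1 (0.49) as the genes of smallest p. The call of Fh1 was lost under 6 of 17 alternatives, its change being 0.00011 after quantile normalization and 0.43 and 0.33 without the first wild type or the second TG vehicle array. Of 10 genes for cristae and membrane shape 5 were higher and 1 lower (median 0.28); Chchd6 (0.95), of the cristae junction, and the fission gene Dnm1l (0.68) rose, and the fusion gene Mfn2 fell by 0.54 on the log2 scale. Cytosolic counterparts had 9 higher and 0 lower of 14 (median 0.46), with 3 subunits of the CCT folding chamber, Cct4 (0.75), Cct3 (0.71) and Cct2 (0.68), in front. Of 13 regulators tested 7 were higher and 0 lower, led by Atf5 (2.18), Ddit3 (1.93) and Atf4 (1.53), the factors named above.

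**Figure D2:**
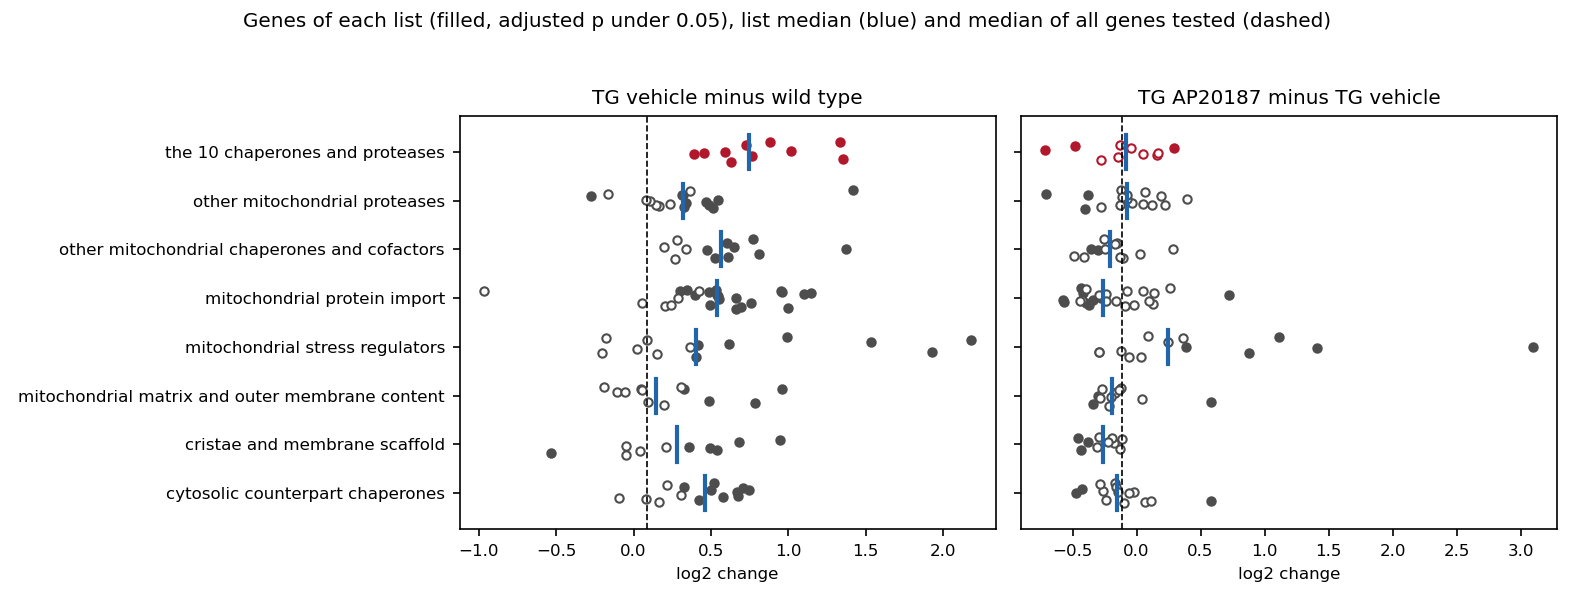
Log2 change of every gene of each list in TG vehicle against wild type muscle (left) and in TG AP20187 against TG vehicle muscle (right), with filled points past an adjusted p of 0.05, the list median in blue and the median of all genes tested dashed. On the left the median of the 10 chaperones and proteases is 0.75, against 0.09 over all genes; on the right it is -0.09, against -0.11 over all genes.

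The second comparison sets transgenic muscle after AP20187 against transgenic muscle after vehicle. Of the 10 genes 1 was called higher, Hspa9, and 2 were called lower, Phb and Hspe1, and 7 did not pass. Over the array 29.3% of genes were called, 14.3% higher and 15.0% lower, a share near that of the 10. The AP20187 arrays lay wholly above the vehicle arrays for 4 of the 10 genes and wholly below for 5, where 27.2% and 41.3% of all genes did. The median change of the 10 was -0.09, against -0.11 over all genes. The same TG vehicle arrays serve as the reference here and as the raised group above, so the 2 sets of changes are not independent.

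Phb fell most. It read 5.23 and 5.09 in TG AP20187 muscle, against 5.79 and 5.96 in TG vehicle muscle, and was 1.64-fold lower (log2 change -0.71, SE 0.10, limma adjusted p = 0.00312). Both AP20187 arrays lay below both vehicle arrays, and the call held under all 17 alternatives. The second probe of Phb gave nearly the same change, with 4.59 and 4.48 in TG AP20187 muscle and 5.13 and 5.39 in TG vehicle muscle (log2 change -0.72, limma adjusted p = 0.00636 over all probes). Its partner Phb2 read 5.54 and 5.48 in TG AP20187 muscle, against 5.62 and 5.66 in TG vehicle muscle, a log2 change of -0.13 (95% CI -0.32 to 0.07) that did not pass. The 2 prohibitins thus differed in their calls, which is not a test of the difference between them.

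Hspe1 read 2.78 and 3.09 in TG AP20187 muscle, against 3.24 and 3.59 in TG vehicle muscle, and was 1.40-fold lower (log2 change -0.48, SE 0.15, limma adjusted p = 0.0428). Hspd1 read 5.86 and 6.09 in TG AP20187 muscle, against 6.14 and 6.10 in TG vehicle muscle, and its log2 change of -0.15 (95% CI -0.39 to 0.10) did not pass. The other Hspe1 probes gave -0.53 and -0.47, of which the first passed over all probes (limma adjusted p = 0.0424) and the second did not (limma adjusted p = 0.066).

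Hspa9 read 6.95 and 7.03 in TG AP20187 muscle, against 6.69 and 6.70 in TG vehicle muscle, and was 1.23-fold higher (log2 change 0.30, SE 0.09, limma adjusted p = 0.0381). Its partners did not pass in either direction: Grpel1 read 6.11 and 6.19 in TG AP20187 muscle, against 6.32 and 6.52 in TG vehicle muscle (log2 change -0.27, 95% CI -0.50 to -0.05, limma adjusted p = 0.0686), and Dnaja3 read 6.01 and 6.10 in TG AP20187 muscle, against 5.91 and 5.88 in TG vehicle muscle (0.16, 95% CI -0.04 to 0.37). Trap1 (0.05, 95% CI -0.14 to 0.25), Clpp (-0.04, 95% CI -0.27 to 0.18) and Lonp1 (0.17, 95% CI -0.03 to 0.37) did not pass either. The other probe of Grpel1 had the opposite sign (0.28) and did not pass either (limma adjusted p = 0.192 over all probes).

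Of 17 alternatives, 12 ended the call of Hspe1 and 10 that of Hspa9, among them the fit within the 1 scan session of these 4 arrays (limma adjusted p = 0.0558 for Hspe1 and 0.0713 for Hspa9). Hspa9 lost its call without any 1 of the 6 muscle arrays (limma adjusted p from 0.0731 to 0.173), and Hspe1 without the first TG AP20187 array (-0.33), the second TG vehicle array (-0.31, which moved the value by over 1.5 times) or either wild type array. After quantile normalization the change of Hspa9 was 0.52, and Dnaja3 (0.34) and Lonp1 (0.32) were then called higher.

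In the wider lists, 20 of 102 genes tested were lower and 8 higher with AP20187. Protein import had 8 lower and 1 higher of 24 (median -0.26): Timm17a, of the inner membrane translocase, fell by 0.56 on the log2 scale and Tomm40l fell by 0.58, while Timm10 rose by 0.72. The regulators had 5 higher and 0 lower of 13 (median 0.25), with Ddit3 (3.09), Nfe2l2, the oxidative stress factor NRF2 (1.41), and Cebpb (1.11) in front. Among other proteases 3 of 17 were lower (Immp1l -0.71, Yme1l1 -0.40 and Immp2l -0.38) and 0 were higher by limma, where 0 were higher and 4 lower at an unadjusted p under 0.05. Of 10 cristae and shape genes 3 were lower (Mfn2 -0.46, Dnm1l -0.43 and Apoo -0.38). Calls in these 2 lists were lost under 13 of 17 alternatives for Yme1l1, 11 for Immp2l, 8 for Apoo, 2 each for Immp1l and Dnm1l and 1 for Mfn2; each of the 6 muscle arrays, left out alone, ended that of Yme1l1, and all but the first TG vehicle array that of Immp2l. Leaving out the second TG vehicle array also ended those of Apoo, Immp1l and Tomm40l, leaving out the first TG AP20187 array those of Apoo, Immp1l and Dnm1l, leaving out the second TG AP20187 array that of Apoo, and leaving out the first TG vehicle array that of Dnm1l.

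Markers of several cell types moved with AP20187 in TG muscle too. Of the skeletal muscle markers 4 were lower and 0 higher of 10 (median -0.35), of the fibroblast markers 3 lower and 0 higher of 8, and of the myotube markers 2 higher and 1 lower of 9, with changes up to 3.44. None of 8 adipocyte or 7 endothelium markers passed. Beside these, 7 of 9 macrophage markers were lower (median -0.91), their summed level running from 4.06 to 4.16 in TG AP20187 muscle and from 4.82 to 4.96 in TG vehicle muscle; the part of other cell types in the changes of the 10 genes was not tested.

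The third comparison sets TG AP20187 muscle against wild type muscle, and so holds the transgene, the injection and the compound together. All 10 genes were called higher, where 29.6% of all genes were (22.6% lower and 52.2% in either direction), and none of their arrays overlapped, as for 41.7% of all genes in this direction and 36.0% in the other, with a median log2 change of 0.58 against 0.04 over all genes. Hspa9 stood highest at 6.95 and 7.03 in TG AP20187 muscle, against 5.30 and 5.38 in wild type muscle, a 3.13-fold difference (log2 change 1.65, SE 0.09, limma adjusted p = 1.03e-05). Dnaja3 (0.93) and Hspe1 (0.85) followed, then Clpp (0.68), Grpel1 (0.61), Lonp1 (0.56), Trap1 (0.51), Phb2 (0.50), Hspd1 (0.44) and Phb (0.30). This comparison shares its wild type arrays with the first. Beside it, 9 of 9 macrophage, 5 of 10 skeletal muscle and 4 of 8 fibroblast markers were lower and 0 of them higher. Of 9 myotube markers 3 were higher and 3 lower, with changes up to 4.72. No adipocyte or endothelium marker passed. The part of these cell types in the values of the 10 genes was not tested.

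For Phb the probes went opposite ways. The probe used read 5.23 and 5.09 in TG AP20187 muscle, against 4.82 and 4.90 in wild type muscle (log2 change 0.30, SE 0.10, limma adjusted p = 0.0381). The second probe read 4.59 and 4.48 in TG AP20187 muscle, against 5.01 and 4.96 in wild type muscle, and was called lower (log2 change -0.45, limma adjusted p = 0.0115 over all probes). Between the 2 probes no direction for Phb against wild type is settled, whereas both gave the fall with AP20187. The call of the probe used also ended under 5 settings of processing, with 0.20 after quantile normalization, 0.16 with detected probes and limma adjusted p of 0.0579 in the authors' deposited table, 0.0535 without the filter on dim probes and 0.0817 without the variance trend. It ended without any 1 of the wild type or TG AP20187 arrays as well, and that of Hspd1 ended after quantile normalization (0.27, limma adjusted p = 0.0542) and without the first wild type array (0.37) or the second TG AP20187 array (0.33).

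**Figure D3:**
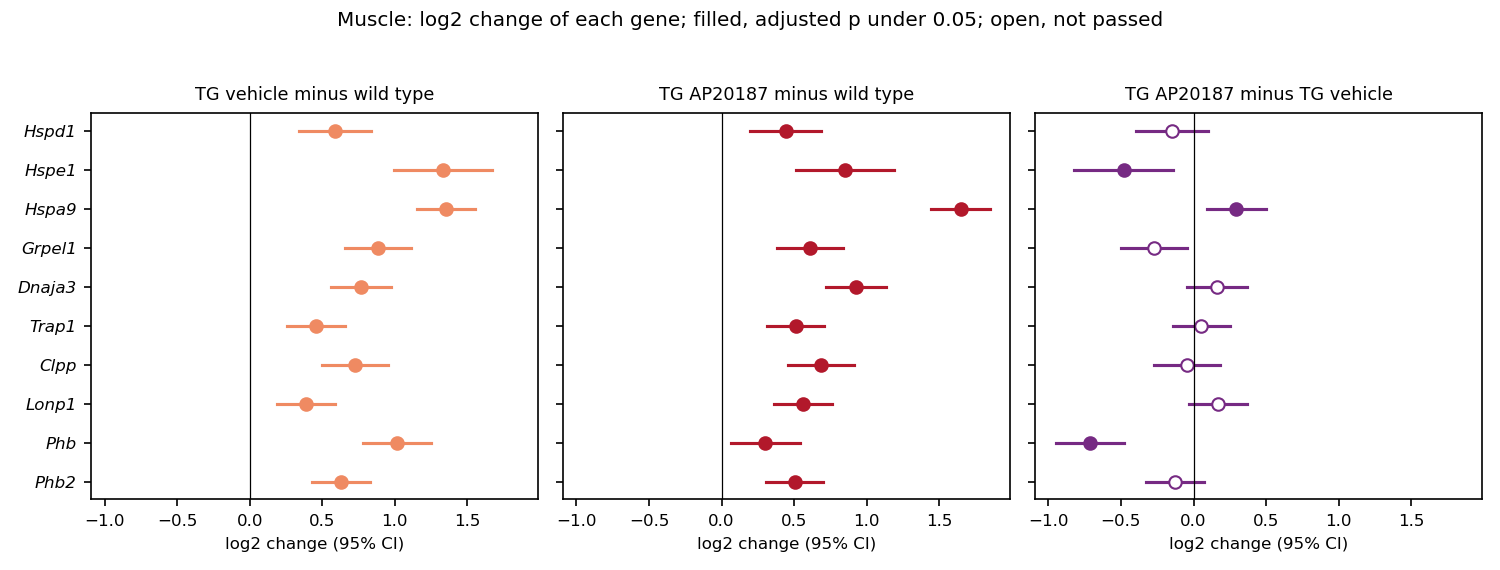
Log2 change of each gene (point) with its 95% confidence interval (bar) in the 3 muscle comparisons; filled points pass an adjusted p of 0.05. Every point lies right of 0 in both panels against wild type, from 0.30 for Phb to 1.65 for Hspa9, and in the right panel only Hspa9 (0.30), Hspe1 (-0.48) and Phb (-0.71) are filled.

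**Figure D4:**
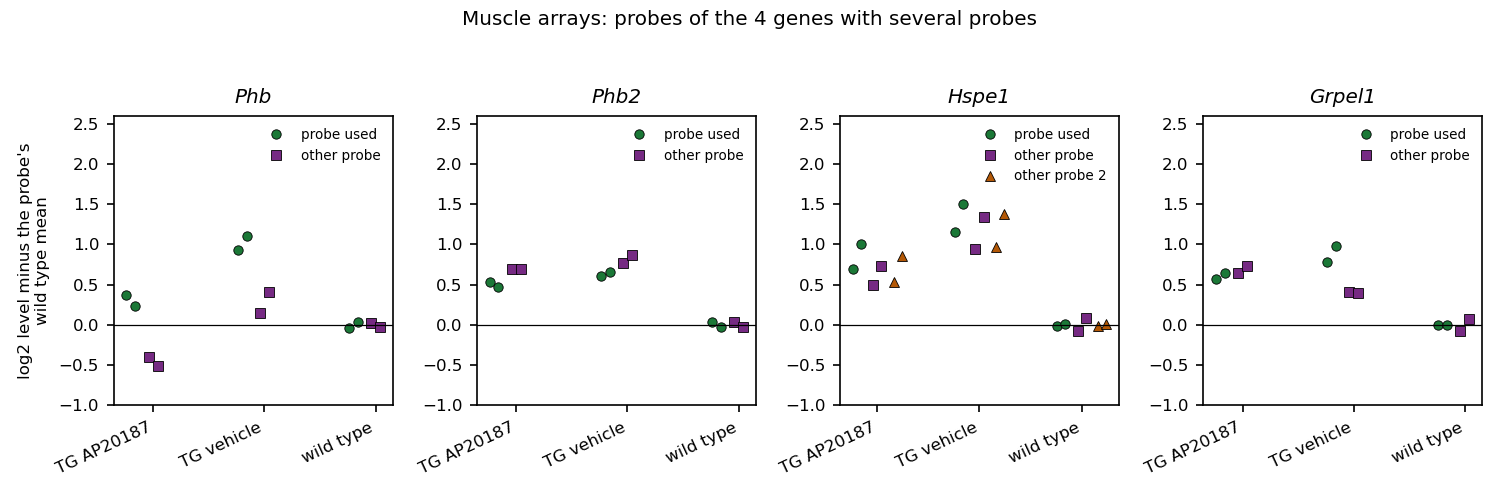
Log2 level of each probe on each muscle array minus that probe's wild type mean, for the 4 genes with several probes; circles are the probe used. The probes of Phb2 and Hspe1 move together, while the second probe of Phb reads below its wild type level in TG AP20187 muscle (log2 change -0.45) where the probe used reads above it (0.30).

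In C2C12 cells AP20187 was tested against vehicle in a fit of 4 arrays. By limma 0 of the 10 genes were called, where 0.526% of 11414 genes were (0.324% higher and 0.202% lower), and 1 of 10, Hspe1, had an unadjusted p under 0.05. The median change of the 10 was 0.11, against -0.06 over all genes. Hspe1 read 3.41 and 3.63 in AP20187 cells, against 3.33 and 3.13 in vehicle cells (log2 change 0.29, 95% CI 0.01 to 0.58, limma adjusted p = 0.34). Hspa9 read 6.11 and 5.82 in AP20187 cells, against 5.68 on both vehicle arrays (0.28, 95% CI -0.01 to 0.57), and Hspd1 read 6.06 and 6.23 in AP20187 cells, against 5.90 and 5.95 in vehicle cells (0.22, 95% CI -0.05 to 0.50). For these 3 genes and Dnaja3 (3.69 and 3.62 in AP20187 cells, against 3.51 and 3.46 in vehicle cells) the AP20187 arrays lay wholly above the vehicle arrays, and for Grpel1 and Clpp wholly below. Over all genes 16.6% lay wholly above and 30.0% wholly below, and none of the 10 passed the test. Overlap was not counted for Lonp1, where the fit left out an array.

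The other 7 genes gave changes from -0.14 for Clpp (95% CI -0.43 to 0.15) to 0.25 for Lonp1 (95% CI -0.11 to 0.60). Lonp1 rests on 1 AP20187 array at 5.26, because the spot on the other was flagged and was left out of the fit, against 4.89 and 5.13 in vehicle cells. Of the 96 genes tested in the 7 other lists, 0 were called by limma and 8 had an unadjusted p under 0.05, 3 higher and 5 lower. On the recorded layout vehicle and AP20187 arrays lay in different rows, so row and treatment cannot be told apart. The summed level of adipocyte markers ran from 3.22 to 3.69 in AP20187 cells and from -0.07 to 0.48 in vehicle cells. Of 7 tested adipocyte markers 5 were called higher. Of 9 tested skeletal muscle markers 2 were called lower, Pvalb (log2 change -2.91) and Myh4 (-1.83), and 0 higher (median -0.24). No macrophage, fibroblast, endothelium or myotube marker was called. The part of these marker changes in the values of the 10 genes was not tested.

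Whether AP20187 acted differently in muscle and in C2C12 was tested as the difference between the 2 changes in 1 fit of all 10 arrays. Of the 10 differences 2 passed: Phb, with a log2 change of -0.71 in muscle and -0.11 in C2C12 (difference -0.60, SE 0.15, limma adjusted p = 0.0279), and Hspe1, with -0.48 in muscle and 0.29 in C2C12 (difference -0.78, SE 0.21, limma adjusted p = 0.0366). Of 14094 genes tested 12.0% passed, 8.01% with a higher and 4.02% with a lower change in muscle. The second Phb probe gave a difference of -0.63 that did not pass (limma adjusted p = 0.0667 over all probes). The Hspe1 difference rests on its dimmest probe alone, since both brighter ones were flagged on the C2C12 AP20187 arrays. Over all probes that Hspe1 probe had a limma adjusted p of 0.0502. For Hspd1 the change was -0.15 in muscle and 0.22 in C2C12, and the difference of -0.37 (95% CI -0.71 to -0.03) did not pass (limma adjusted p = 0.141). The remaining differences did not pass, and ran from -0.19 for Grpel1 (95% CI -0.48 to 0.10) to 0.10 for Clpp (95% CI -0.25 to 0.45). For Hspa9 the change was 0.30 in muscle and 0.28 in C2C12 (difference 0.01, 95% CI -0.32 to 0.34).

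Doses, routes and slide layout differ between the 2 systems, and expression of the fusion was not measured. In the same test 7 of 8 adipocyte and 3 of 9 macrophage markers passed with a lower change in muscle, and 0 with a higher one. Of 9 skeletal muscle markers 2 passed with a higher and 1 with a lower change, and of 7 myotube markers 2 with a higher one. The parts of all these were not tested. The Hspe1 difference lost its call without the first TG AP20187 array, the second TG vehicle array, the second array of either C2C12 group or either wild type array. The Phb difference lost it without the second array of TG vehicle, TG AP20187 or C2C12 vehicle, or either C2C12 AP20187 array. Processing ended these calls too, that of Phb after quantile normalization (limma adjusted p = 0.056) and that of Hspe1 under normexp background correction (limma adjusted p = 0.0881). With the authors' deposited table neither passed (limma adjusted p = 0.0965 for Phb and 0.109 for Hspe1). Without the variance trend neither passed either (limma adjusted p = 0.0769 for Phb and 0.0902 for Hspe1). Over all 20 alternatives the difference ran from -0.95 to -0.59 for Hspe1 and from -0.73 to -0.50 for Phb.

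**Figure D5:**
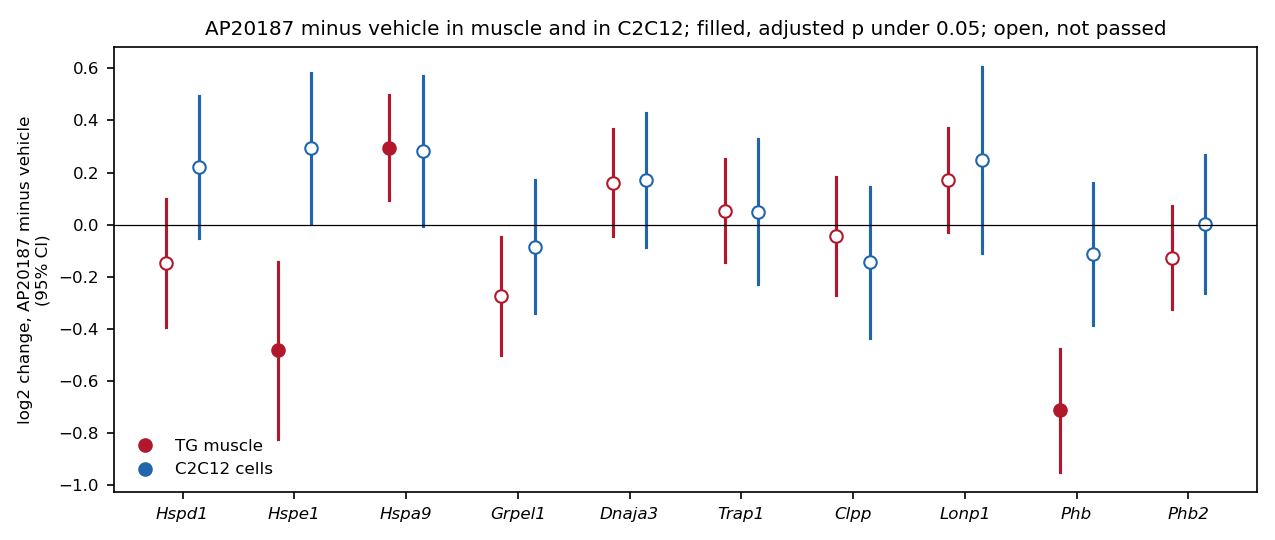
Log2 change of each gene with AP20187 against vehicle in TG muscle (red) and in C2C12 cells (blue), with 95% confidence intervals; filled points pass an adjusted p of 0.05. Phb lies at -0.71 in muscle and -0.11 in C2C12, Hspe1 at -0.48 and 0.29, and no C2C12 point is filled.

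Last, C2C12 vehicle cells were set against TG vehicle muscle, a comparison of cultured myotubes with tissue that also crosses scan sessions. Of the 10 genes 8 were lower and 0 higher in C2C12, where 40.2% of 14292 genes were lower, 38.5% higher and 78.7% called in either direction. Dnaja3 differed most, at 3.51 and 3.46 in C2C12 vehicle cells, against 5.91 and 5.88 in TG vehicle muscle, and was 5.31-fold lower in C2C12. Grpel1 (log2 change -1.74), Trap1 (-1.73), Hspa9 (-1.01), Phb2 (-0.999), Clpp (-0.97), Phb (-0.84) and Lonp1 (-0.66) were lower too. The HSP60 pair was not called: Hspd1 read 5.90 and 5.95 in C2C12 vehicle cells, against 6.14 and 6.10 in TG vehicle muscle (-0.19, 95% CI -0.43 to 0.04), and Hspe1 read 3.33 and 3.13 in C2C12 vehicle cells, against 3.24 and 3.59 in TG vehicle muscle (-0.19, 95% CI -0.52 to 0.14). The brighter Hspe1 probes gave -0.34 (limma adjusted p = 0.0557 over all probes) and -0.38, of which the second was called lower (limma adjusted p = 0.0461). Whether Hspd1 and Hspe1 differed from the other 8 was not tested, and after quantile normalization both turned above 0, Hspd1 at 0.30 with a limma adjusted p of 0.0158 and Hspe1 at 0.08. It also brought Hspa9 to -0.49, Phb to -0.35, Phb2 to -0.52 and Lonp1 to -0.20, the last no longer passing (limma adjusted p = 0.0702), and a mean over probes brought Phb to -1.36.

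Most genes of the other mitochondrial lists were lower in C2C12 too. Matrix and carrier genes had 11 lower and 1 higher of 12 (median -2.29), cristae and shape genes 9 lower and 0 higher of 10 (-1.80), other chaperones and cofactors 12 lower of 12 (-1.65) and other proteases 14 lower and 3 higher of 17 (-1.11). Protein import had 18 lower and 1 higher of 24 (-0.64), and cytosolic counterparts 5 lower and 7 higher of 14 (0.23). The muscle ADP/ATP carrier Slc25a4 (-3.43) and the cristae gene Apoo (-3.53) had the lowest values of their lists. The citric acid cycle subunit Idh3a was at -3.26, and the highest value of the matrix and carrier list was 1.84. In the cytosolic list Hsp90aa1 was higher in C2C12 (2.42).

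Across the 5 groups the genes fell into different orders. Hspd1 and Hspe1 had their lowest mean level in wild type muscle and their highest in C2C12 AP20187 cells, whose arrays overlapped those of TG vehicle muscle for both genes. Hspa9 was also lowest in wild type muscle, at 5.34 on average, but highest in TG AP20187 muscle, at 6.99. Dnaja3, Trap1, Clpp, Grpel1, Lonp1 and Phb2 were higher in both TG muscle groups than in wild type muscle and lower in both C2C12 groups than in any muscle group, with a gap of only 0.01 between a wild type and a C2C12 AP20187 array for Lonp1. The probe used for Phb was highest in TG vehicle muscle, at 5.88 on average, and its other 4 groups lay between 4.86 and 5.16. The second Phb probe was also highest in TG vehicle muscle (5.26 on average) but stood at 4.54 in TG AP20187 muscle, below the 4.99 of wild type muscle, and lay between 3.18 and 3.53 on the 4 C2C12 arrays.

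The genes whose levels followed Hspd1 most closely over the 6 muscle arrays, out of 12195 above background on all 6, were Ak4 (Pearson r 0.99), Etfa, Lrrc28, Mdp1 and Fen1 (0.99 each), and Hspe1 was number 341 (0.95). Over all 10 arrays, out of 9463 genes, they were Dnph1 (0.97), Nars, Btf3l4 and Cenpq (0.96 each) and Mnd1 (0.95), and Hspe1 was number 9 (0.93). The arrays share their groups and scaling, so these correlations describe likeness of pattern over 3 or 5 group means. Within muscle, Hspa9, Dnaja3 and Trap1 followed each other (r from 0.995 to 0.999), and Hspe1 followed Grpel1 (0.99), while the lowest correlation among the 10 was between Lonp1 and Phb (0.47).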

How the data were processed

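RNA of 10 samples in 5 groups of 2 was hybridised to single-colour Agilent mouse arrays, 1 array a sample. Per the file headers, spots were read with Agilent Feature Extraction 10.7.1.1, which gave the deposited intensity of each spot after background subtraction, with no normalization between arrays. The authors' deposited table holds log2 values whose baseline is not stated; its column medians run from -0.57 to 0.80, and its differences between arrays followed those of the scanner intensities (r of at least 0.9998 over 55681 matched probes), so it served as an alternative. Other steps are not given in the sources used here.

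From the deposited intensities, log2 values minus each array's 75th percentile over gene spots were computed; flagged spots were left out, spots of a probe were averaged, and each gene was given by its brightest probe with a value on every array. RefSeq accessions named 26056 of 55681 gene probes. Genes were tested where, in 1 group or more, both arrays read them well above background, with limma 3.58.1 (lmFit, eBayes with a variance trend) in R 4.3.3 and Benjamini-Hochberg adjustment, in fits of 6 muscle, 4 C2C12 or all 10 arrays, with 3, 2 and 5 residual degrees of freedom. The number of arrays limits the precision. The fit was also run on simulated data with independent noise for each gene and array. Those data held no shared effect of array, slide or scan session, so they do not test for one.

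The 10 genes and the lists were chosen with earlier results of these data known. All 10 are named in each comparison, and of each other list at most the 3 called genes of smallest p. Genes most like Hspd1 are the 5 of highest correlation, leaving out clone and predicted-gene names. Alternatives covered scaling, background, dim and flagged spots, probes, the variance trend, the replicate block, the arrays in the fit and each array left out.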

Additional observations from a re-analysis of the deposited data

Results flagged for a closer look

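Both genes whose AP20187 change differed between muscle and C2C12 in the test of the difference itself are given again here. For Hspe1 the log2 change was -0.48 in TG muscle and 0.29 in C2C12, a difference of -0.78 (limma adjusted p = 0.0366). For Phb it was -0.71 in TG muscle and -0.11 in C2C12, a difference of -0.60 (limma adjusted p = 0.0279). The Hspe1 difference rests on its dimmest probe alone, and the second Phb probe gave -0.63 and did not pass (limma adjusted p = 0.0667 over all probes). Dose, route and scan session differ between the systems. On the recorded layout treatment went with slide column in TG muscle and with slide row in C2C12. The part of all these in the differences was not tested.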

How the results depend on the processing

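Across 21 settings, and with the cause not tested, counts and signs of the 10 genes moved as follows; calls of single genes that were lost stand with their results above. For AP20187 against vehicle in TG muscle, 3 of the 10 genes were higher after quantile normalization and 0 with the authors' deposited table, without the filter on dim probes, without the variance trend or with only the groups compared; 1 was lower under each of these 5 settings and under normexp and the percentile over detected or over unflagged probes. Signs turned for Hspd1 (0.052), Clpp (0.039) and Phb2 (0.033) after quantile normalization, for Clpp under normexp (0.018), detected probes (0.028) and the deposited table (0.0019), and for Grpel1 with a mean over probes (0.0047). In TG AP20187 against wild type muscle, Phb was at -0.075 with a mean over probes and lost its call under 5 other settings of processing, and Hspd1 lost its call after quantile normalization (0.27).

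In C2C12, where 60 genes were called, normexp called 330, the deposited values 21, no filter 147, no variance trend 32, the replicate block 104 and unflagged probes 154. Signs turned there for Grpel1 (0.025 quantile, 0.017 detected probes, 0.089 unflagged probes), Phb2 (-0.13 normexp, -0.016 deposited table, -0.041 mean over probes), Clpp (0.029) and Phb (0.062), both with unflagged probes. For the difference between muscle and C2C12, normexp called 3181 genes against 1695; of the 10 genes 1 was lower under quantile normalization and 1 under normexp, and 0 with the deposited table or without the variance trend. Signs turned for Dnaja3 (0.062 quantile, 0.14 normexp, 0.056 deposited table), Lonp1 (0.18 normexp, 0.047 deposited table), Phb2 (0.084 normexp), Hspa9 (-0.017 detected, -0.12 unflagged), Trap1 (-0.026 detected, -0.13 unflagged), Clpp (-0.029 unflagged) and Grpel1 (0.13 mean over probes). In C2C12 vehicle against TG vehicle, 1 gene was higher after quantile normalization, Hspd1 (0.30), which was at 0.027 with detected probes, and Hspe1 was at 0.083 and 0.032 under the same settings.

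Leaving out each array in turn leaves an arm with 1 array, assumed to vary like the others. It gave 1802 to 3347 genes for AP20187 in TG muscle (3964 with all arrays), lowest without the second TG vehicle array and also moved by over 1.5 times without either TG AP20187 array (2362 and 2592), with 0 of the 10 higher, 1 to 3 lower and Clpp from -0.12 to 0.036. It gave 3116 to 5250 genes for TG vehicle against wild type (5184 with all arrays), low without the first or second wild type array (3116 and 3423) or the second TG vehicle array (3278), with 9 to 10 higher. It gave 5185 to 7083 for TG AP20187 against wild type, with 8 to 10 higher. In C2C12 it gave 27 genes without the second vehicle array and 305 without the first (106 and 204 without the first and second AP20187 array), with Trap1 from -0.057 to 0.16 and Phb2 from -0.071 to 0.079. For the difference between systems it gave 857 to 1658 genes, low without the second TG vehicle (857), either TG AP20187 (971 and 1083) or the first C2C12 AP20187 array (1027), with 0 to 2 of the 10 lower, Hspa9 from -0.13 to 0.16, Dnaja3 from -0.056 to 0.035, Trap1 from -0.11 to 0.11, Clpp from -0.039 to 0.24 and Lonp1 from -0.20 to 0.041. For C2C12 vehicle against TG vehicle it gave 10482 to 11281, with 8 lower.

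Scaling moved the median of all genes by over 0.1 for detected probes (-0.21 and -0.14 for TG vehicle and TG AP20187 against wild type, 0.10 in C2C12, 0.22 for C2C12 against muscle), unflagged probes (0.17 in C2C12, -0.13 for the difference) and quantile normalization (0.10 for AP20187 in muscle). The share of called genes that were higher was 48.9% for AP20187 in muscle against 63.2% (quantile), 61.1% (detected) and 62.5% (deposited table); 67.1% for TG vehicle against wild type, with 53.2% (quantile) and 39.2% (detected); 56.6% for TG AP20187 against wild type, with 43.8% (detected); 61.7% in C2C12, with 75.4% (quantile), 79.7% (detected), 85.7% (deposited table), 90.3% (unflagged) and 47.0% (normexp); and 66.6% for the difference, with 51.1% (normexp) and 45.1% (unflagged). The percentile over unflagged probes was chosen after seeing the data.

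Same-numbered arrays deviated together with correlations from 0.05 to 0.20, not all over 0.1, so the numbers were not shown to pair arrays; beside the count above, the replicate block brought Grpel1 past the threshold for AP20187 in TG muscle (-0.27, limma adjusted p = 0.0276). Normexp used the median spot signal. A block for scan session or slide was not run, since each group lies in 1 session and the TG groups share theirs.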

Other observations

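Adipocyte markers differed between the C2C12 groups: 7 of 8 were well above background on both AP20187 arrays, against 0 of 8 on both vehicle arrays. Of the 7 tested, 5 were called higher with AP20187 and 0 lower (limma, adjusted over all genes). Their median log2 change was 3.23, against -0.06 over all genes. Among 9 tested skeletal muscle markers 2 were called lower, Pvalb (-2.91) and Myh4 (-1.83), and 0 higher (median -0.24).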
